A study of Mus musculus with 18 samples.

Results

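The Kruppel-like factors are a family of transcription factors, and 9 of them, Klf2, Klf3, Klf4, Klf6, Klf7, Klf9, Klf10, Klf11 and Klf13, were followed over the first 30 min of macrophage activation. They were chosen by name: every probe set that the platform annotation ties to 1 of these symbols was taken, which gave 31 of the 45037 probe sets on the array that are not controls. Of these, 26 were bright enough to be tested, among 27110 tested probe sets of the whole array. The other 5 (1 of Klf3, 3 of Klf9 and 1 of Klf13) reached the array median on at most 1 array. The cells were macrophages grown from marrow of IL-10-/- mice for 7 days in medium with CSF-1, so every group, those with LPS alone included, lacked a working Il10 gene. The 6 groups were LPS at 100 ng/ml plus IL-10 at 10 ng/ml for 10, 20 or 30 min, and LPS alone at 100 ng/ml for the same times. LPS is the bacterial cell wall product sensed by Toll-like receptor 4, and IL-10 is an anti-inflammatory cytokine that acts through the transcription factor STAT3. Each group had 3 Affymetrix arrays, 1 from each of 3 independent experiments carried out one after the other, which are called experiments 1, 2 and 3. Untreated cells were not analysed here, so each comparison is between times or between treatments of stimulated cells. The sources used here do not say whether marrow of several mice was pooled.

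Kruppel-like factors bind GC-rich and CACCC-type DNA elements through 3 zinc fingers near the carboxyl terminus, and differ in the domains ahead of the fingers that recruit activators or repressors. Klf2 and Klf4 are known in the monocyte and macrophage lineage, where Klf2 restrains inflammatory gene expression and Klf4 promotes monocyte differentiation and alternative activation. Klf6 is known to act with NF-kB in inflammatory macrophages. Klf3 recruits the co-repressor CtBP, and Klf9, Klf10, Klf11 and Klf13 recruit the co-repressor Sin3A.

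The labelled cell type was checked against its markers: all 8 macrophage markers on the array were tested, and their summed signal was 106046 to 189889 per array. The summed signal of 5 T lymphocyte markers was 61.7 to 363 per array, and 3 of the 5 stayed under the array median on every array. The sums were 204 to 549 for 4 B lymphocyte markers, 70.7 to 317 for 3 erythroid markers, 136 to 424 for 4 dendritic cell markers, 1164 to 2276 for 5 granulocyte markers and 1607 to 3655 for 4 stromal markers. The 5 granulocyte and 4 stromal markers were also all tested. Of the markers other than those of T lymphocytes, 1 erythroid and 1 dendritic cell marker stayed under the median on every array. Signal is the deposited intensity, scaled so that the trimmed mean of every array is 500.003 to 500.004, and its median was 75.6 to 120.9 per array. The LPS 20 min arrays of experiments 2 and 3 stood apart from the other 16: their lower quartile of signal was 38.6 and 34.0, against 21.8 to 31.0. In bulk RNA, fewer cells of a type and less RNA per cell cannot be told apart.

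Klf6 was the 1 member with a tested change over time. Its probe set 1418280_at rose at 30 against 10 min, but only in the fit that takes the experiment as a block. No other member passed a test of time, and no member passed a test of LPS plus IL-10 against LPS at any time. For the brightest probe set of all 9 members, the largest share of the variation lay between the 3 experiments. The promoter of Klf6 is shown because it is the gene with the time change, and that of Klf9 because it alone among the 8 members with a promoter in the table holds a match to the STAT site, the kind of element bound by the factor through which IL-10 acts. Both run from 250 bases before to 50 bases after the transcription start, from RefSeq on mouse build GRCm38.p6, at chr13:5861239-5861538 on the plus strand for Klf6 and chr19:23140976-23141275 on the plus strand for Klf9. Capitals mark the match to the GC box GGGCGG in Klf6 and to the STAT site TTCNNNGAA in Klf9.
Klf6: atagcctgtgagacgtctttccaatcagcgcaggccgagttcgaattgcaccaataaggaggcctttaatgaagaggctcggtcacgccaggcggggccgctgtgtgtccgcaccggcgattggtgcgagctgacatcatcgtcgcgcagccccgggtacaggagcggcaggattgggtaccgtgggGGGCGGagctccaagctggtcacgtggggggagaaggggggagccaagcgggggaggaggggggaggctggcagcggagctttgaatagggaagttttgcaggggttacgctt
Klf9: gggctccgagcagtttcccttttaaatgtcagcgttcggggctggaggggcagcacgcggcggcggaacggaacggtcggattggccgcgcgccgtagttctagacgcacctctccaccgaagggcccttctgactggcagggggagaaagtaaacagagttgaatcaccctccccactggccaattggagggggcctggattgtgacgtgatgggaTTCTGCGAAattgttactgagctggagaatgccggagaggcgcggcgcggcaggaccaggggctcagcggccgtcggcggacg

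RefSeq gave a promoter for 8 of the 9 members, all except Klf10. On either strand, the GC box GGGCGG, the element bound by Sp and Kruppel-like factors, was in 7 of these 8, against 35.7 percent of all 32851 promoters in the table. Klf9 is the one without it. The 8 promoters have 58.3 to 77.7 percent G or C, and the comparison with all promoters was not matched for this. The CACCC element, the other recognition element of the family, was in 5 of 8, against 57.5 percent of all. The 2 motifs can lie side by side in a GC-rich stretch but their letters differ. The STAT site TTCNNNGAA was in 1 of 8, against 8.3 percent of all. In Klf9 it reads TTCTGCGAA and starts 33 bases before the transcription start. No match was found in the 8 promoters to the cAMP response element TGACGTCA (1.79 percent of all), the CArG box of the serum response element (1.63 percent) or the NF-kB site (8.46 percent). In Klf6 the GC box starts 63 bases before the transcription start, and 63.0 percent of the 300 bases are G or C. These are matches of letters in a fixed window and were not measured as binding.

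Klf6, a widely expressed activator first described as a core promoter element binding protein, had 5 probe sets on the array and all 5 were tested. On 1418280_at its signal under LPS plus IL-10 in experiments 1, 2 and 3 was 2427, 484 and 414 at 10 min, 3708, 1236 and 507 at 20 min, and 3752, 1042 and 646 at 30 min. With LPS alone, Klf6 on the same probe set read 2757, 649.6 and 433 at 10 min, 3299.5, 963 and 519 at 20 min, and 3342, 894 and 838 at 30 min. In each of the 6 courses of 1 experiment and 1 treatment, the 10 min array was the lowest of the 3. The share of all tested probe sets with this pattern is not given. Experiment 1 was far above the others at all times, so the groups of 3 overlapped widely between times: the 30 min arrays averaged 1813 ± 1691 under LPS plus IL-10 and 1692 ± 1430 under LPS, while the 10 min arrays averaged 1109 ± 1143 under LPS plus IL-10 and 1280.0 ± 1284 under LPS (SD, n = 3 each). At 30 against 10 min, averaged over the treatments, the difference was 0.66 on the log2(signal + 16) scale, where a difference of 1 is a 2-fold change, and it was 0.45, 0.77 and 0.78 within experiments 1, 2 and 3. It was above 0 in 6 of 6 pairs of arrays, at 0.28 to 1.08, and 2.8 percent of all tested probe sets were higher in 6 of 6.

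Without the experiment in the model this difference had an SE of 0.66 and an adjusted p of 1.00 in limma. With the experiment as a block the SE was 0.12, the 95% interval 0.41 to 0.91 and the adjusted p 0.0103. No Klf probe set of 26 was called without the block, where 1 had an unadjusted p under 0.05, and 1 of 26 was called with it, where 7 had an unadjusted p under 0.05. Over all 27110 tested probe sets the share called was 0.059 percent without the block and 0.435 percent with it, and the share at an unadjusted p under 0.05 was 2.72 and 7.16 percent. The call was lost when experiment 1 or 2 was left out. The adjusted p with the block was 0.297 without experiment 1, 0.177 without experiment 2 and 0.0114 without experiment 3, with differences of 0.77, 0.61 and 0.61. It was 0.0796 when the spread was modelled without an intensity trend, and 0.0138 when the 2 LPS 20 min arrays that stood apart were left out. By treatment, the difference was 0.78 under LPS plus IL-10 (adjusted p with the block 0.0793) and 0.55 under LPS alone (adjusted p with the block 0.794), neither of them called. The share called over all tested probe sets was 0.225 percent with the block and 0.0443 percent without it under LPS plus IL-10, and 0.111 and 0.0184 percent under LPS alone. At 20 against 10 min it was 0.55 averaged over the treatments and above 0 in 6 of 6 pairs, which was true of 1.95 percent of all tested probe sets, with an adjusted p of 0.182 with the block.

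**Figure D1:**
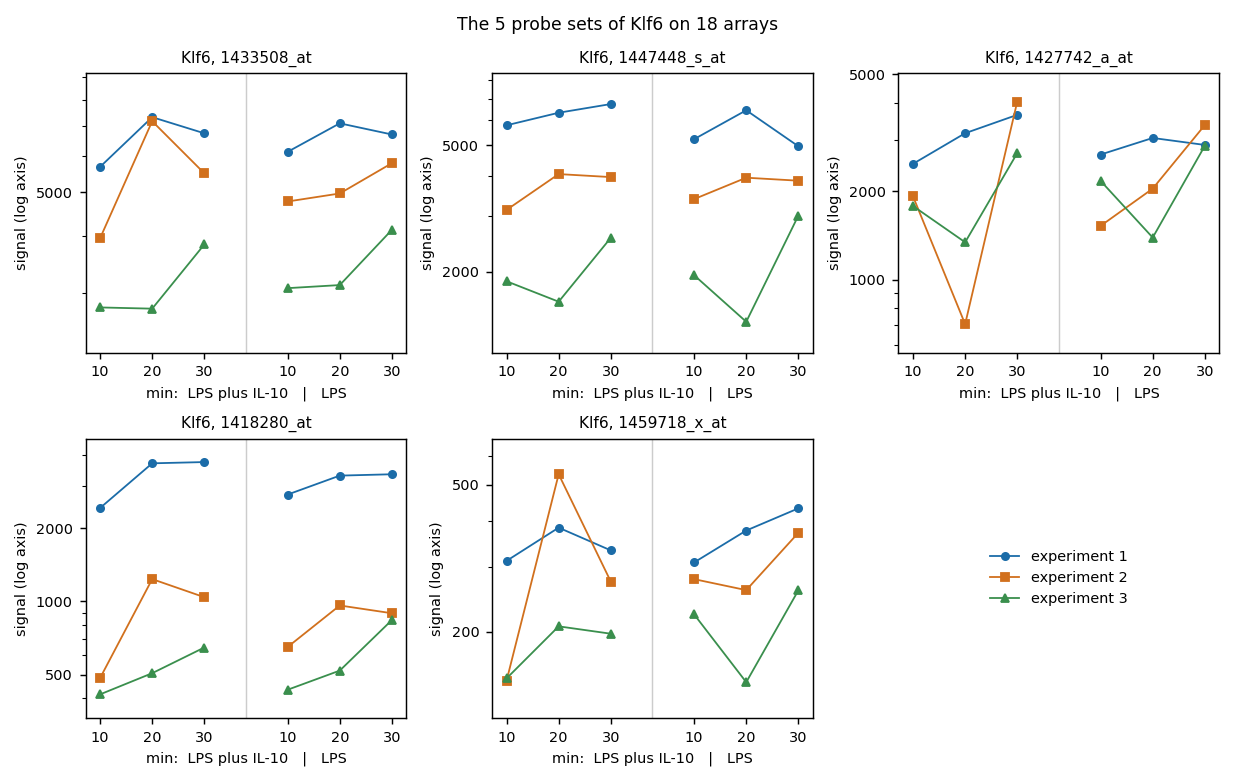
Signal (log axis) of the 5 Klf6 probe sets on 18 arrays against time in min, with LPS plus IL-10 on the left and LPS alone on the right of each panel. Each point is 1 array and each line joins the arrays of 1 experiment under 1 treatment. On 1418280_at all 6 lines are lowest at 10 min, with experiment 1 above the others, and on 1427742_a_at the array of experiment 2 at 20 min under LPS plus IL-10 is the lowest, at 705.

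The other 4 Klf6 probe sets were also higher on average at 30 min than at 10 min, but none was called when all groups were in the fit. These are readings of the same 18 RNA samples and not replicates, and the endings in the names of 1447448_s_at and 1459718_x_at mean that their probes can match more than 1 transcript. These 2 were designed on 1 source sequence. The brightest, 1433508_at, read 5688, 3959 and 2785 at 10 min, 7322, 7172 and 2768 at 20 min, and 6746, 5505 and 3835 at 30 min in experiments 1, 2 and 3 with LPS plus IL-10. With LPS alone, 1433508_at read 6139.6, 4771 and 3072 at 10 min, 7097, 4969 and 3120.1 at 20 min, and 6705, 5796 and 4131 at 30 min. Every 30 min array was above the 10 min array of its own experiment and treatment, while the 3 arrays of a group spread widely and the groups overlapped. The difference was 0.34 (SE with the block 0.098, adjusted p 0.285).

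On 1427742_a_at, which by its ending may detect alternative transcripts of Klf6, the signal with LPS plus IL-10 was 2479, 1920.0 and 1781 at 10 min, 3152, 705 and 1340.3 at 20 min, and 3641, 4037 and 2697 at 30 min. With LPS alone, 1427742_a_at read 2666, 1524 and 2169 at 10 min, 3037, 2041 and 1391 at 20 min, and 2875, 3359.7 and 2855 at 30 min. All 6 arrays of 30 min were above all 6 arrays of 10 min, the only Klf probe set of which this was true, against 0.166 percent of all tested probe sets. The difference was 0.64 (SE with the block 0.21, adjusted p 0.388). At 20 min, however, this probe set lay in the opposite direction from 1418280_at, with an average difference from 10 min of -0.25, and 3 of 6 pairs were lower. In a fit limited to the arrays of 30 and 10 min with the block, 1418280_at, 1427742_a_at and 1433508_at were all called, with adjusted p of 0.000568, 0.0078 and 0.00596. The share of all tested probe sets called in this limited fit is not given, so these 3 calls are not set against the rest of the array. The remaining sets, 1447448_s_at and 1459718_x_at, differed by 0.29 and 0.39 between 30 and 10 min and were higher in 5 and 6 of 6 pairs.

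Klf2, a quiescence factor of endothelial cells and T cells as well as a restraint on macrophage activation, had 1 probe set. Klf2 signal under LPS plus IL-10 in experiments 1, 2 and 3 was 652, 682 and 1274 at 10 min, 476, 2024 and 1437 at 20 min, and 548, 1272 and 1930.0 at 30 min. With LPS alone, Klf2 read 577, 777 and 1214 at 10 min, 509, 1149 and 1746 at 20 min, and 666, 1345 and 1803 at 30 min. All arrays of experiment 1 were below all arrays of experiments 2 and 3, and the 3 arrays of each group spread over more than the distance between times. The difference at 30 against 10 min was 0.46 and was 0.83 and 0.58 in experiments 2 and 3, against -0.02 in experiment 1. With the block its interval was 0.10 to 0.83 and its adjusted p 0.523, so it was not called.

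Klf4, the Klf2 relative best known as a pluripotency factor, had 2 tested probe sets designed on 1 source sequence. The brighter, 1417394_at, read 2429.8, 2651 and 1643 at 10 min, 2729.7, 2717 and 2251 at 20 min, and 2798, 3715 and 1726 at 30 min under LPS plus IL-10. With LPS alone, Klf4 read 2515, 3056 and 1575 at 10 min, 2489, 3249 and 2186 at 20 min, and 3072, 3456 and 1728 at 30 min. All 6 arrays of experiment 3 lay below the 12 arrays of the other experiments. The 30 min array was above its 10 min partner in 6 of 6 pairs, by 0.07 to 0.48, with an average of 0.23 and an adjusted p of 0.619 with the block. The other Klf4 probe set did not share this: its difference was -0.02, with 3 of 6 pairs higher.

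Among the repressors that bind Sin3A, Klf10, first described as a gene induced early by TGF-beta, had 1 probe set. Klf10 signal under LPS plus IL-10 in experiments 1, 2 and 3 was 3149, 1432 and 1434 at 10 min, 3216, 1532 and 2271 at 20 min, and 3088, 1231 and 1099 at 30 min. With LPS alone, Klf10 read 3519.5, 1570.1 and 1279.8 at 10 min, 4073, 1419 and 2392 at 20 min, and 3313, 1440.3 and 1172 at 30 min. The 30 min array was below its 10 min partner in 6 of 6 pairs, by 0.03 to 0.38, and the 20 min array was above the 10 min array in 5 of 6. Experiment 3 held the largest step, to 2271 at 20 min under LPS plus IL-10 and 2392 at 20 min under LPS, and experiment 1 was above both others on every array. The average differences of Klf10 were -0.16 at 30 against 10 min (interval with the block -0.43 to 0.11) and 0.29 at 20 against 10 min (interval 0.02 to 0.56). Neither was called, at adjusted p of 0.882 and 0.586 with the block. Being lower in 6 of 6 pairs at 30 min was true of 4.36 percent of all tested probe sets, and being higher in 6 of 6 of 2.8 percent.

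Klf11, a close relative of Klf10, had 1 probe set. Klf11 signal under LPS plus IL-10 in experiments 1, 2 and 3 was 559, 238 and 229 at 10 min, 534, 340.2 and 236 at 20 min, and 500.1, 224 and 193 at 30 min. With LPS alone, Klf11 read 489, 347 and 204 at 10 min, 645, 322 and 377 at 20 min, and 548, 244 and 242 at 30 min. Its 6 arrays of experiment 1 were above all others. The difference was -0.09 at 30 against 10 min and 0.26 at 20 against 10 min, with adjusted p of 0.95 and 0.60 with the block.

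Klf9, a factor induced by glucocorticoids and thyroid hormone in other tissues, had 7 probe sets, of which 3 were too dim to be tested. The brightest, 1428288_at, read 1217, 1205 and 563 at 10 min, 1200.0, 1092 and 565 at 20 min, and 1339, 1088 and 530.0 at 30 min under LPS plus IL-10. With LPS alone, Klf9 read 1161, 1081 and 526 at 10 min, 1365, 1310.1 and 652 at 20 min, and 1334, 991 and 519.8 at 30 min. All arrays of experiment 3 were the lowest, at 519.8 to 652, against 991 to 1365 in experiments 1 and 2. The difference at 30 against 10 min was -0.01, with an interval of -0.16 to 0.15 with the block. Its 3 other tested probe sets differed by -0.32 to -0.15 over the same interval and were not called.

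Klf13, known for its part in late T cell chemokine expression, had 3 probe sets, of which 2 were tested. The brighter, 1436316_at, read 1435, 1581 and 1155 at 10 min, 993, 3029 and 889 at 20 min, and 1145, 1279 and 934 at 30 min under LPS plus IL-10. With LPS alone, Klf13 read 833, 1700.5 and 1392 at 10 min, 1222, 1555 and 1043 at 20 min, and 1034, 1361 and 1073 at 30 min. One array, experiment 2 at 20 min with IL-10, stood well above the others at 3029. The second Klf13 probe set was also highest in experiment 2, at 1079 to 1528, against 630.2 to 1023 in the other experiments. Their differences at 30 against 10 min were -0.22 and 0.00, and neither was called.

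Klf3, a CtBP-dependent repressor known from adipocyte and B cell development, had 7 probe sets, 6 of them tested. The brightest, 1454666_at, read 1334, 2780.0 and 2699.9 at 10 min, 1410.1, 2652 and 3309 at 20 min, and 1313, 2801 and 2696 at 30 min under LPS plus IL-10. With LPS alone, Klf3 read 1534, 2918 and 2572 at 10 min, 1216, 2564 and 3366 at 20 min, and 1541, 2635 and 2573 at 30 min. Experiment 1 was below the others on every array, and in experiment 3 the 20 min arrays were the highest, at 3309 under LPS plus IL-10 and 3366 under LPS. The difference was -0.03 at 30 against 10 min. The 5 other tested Klf3 probe sets differed by -0.25 to 0.15, none of them called. The 2 dimmest tested Klf3 probe sets, 1441200_at and 1442920_at, were -0.64 and -0.68 at 20 against 10 min, with adjusted p of 0.497 and 0.535 with the block. On the dimmer one a single LPS 20 min array read 15.7, close to the pseudocount of 16.

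Klf7, an activator closest to Klf6 in sequence and known from neurons, had 4 probe sets, all designed on 1 source sequence and all tested. The brightest, 1449439_at, read 674, 413 and 773 at 10 min, 676, 385 and 967 at 20 min, and 677, 445 and 796 at 30 min under LPS plus IL-10. With LPS alone, Klf7 read 739, 320.2 and 692 at 10 min, 670.2, 409.6 and 1073 at 20 min, and 542, 405 and 751 at 30 min. Here experiment 2 was the lowest, at 320.2 to 445 against 542 to 1073. The difference at 30 against 10 min was 0.02, against 0.02 to 0.21 on the other 3 probe sets, and the 4 disagreed at 20 against 10 min, where the dimmest was at -0.48 and the brightest at 0.17.

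**Figure D2:**
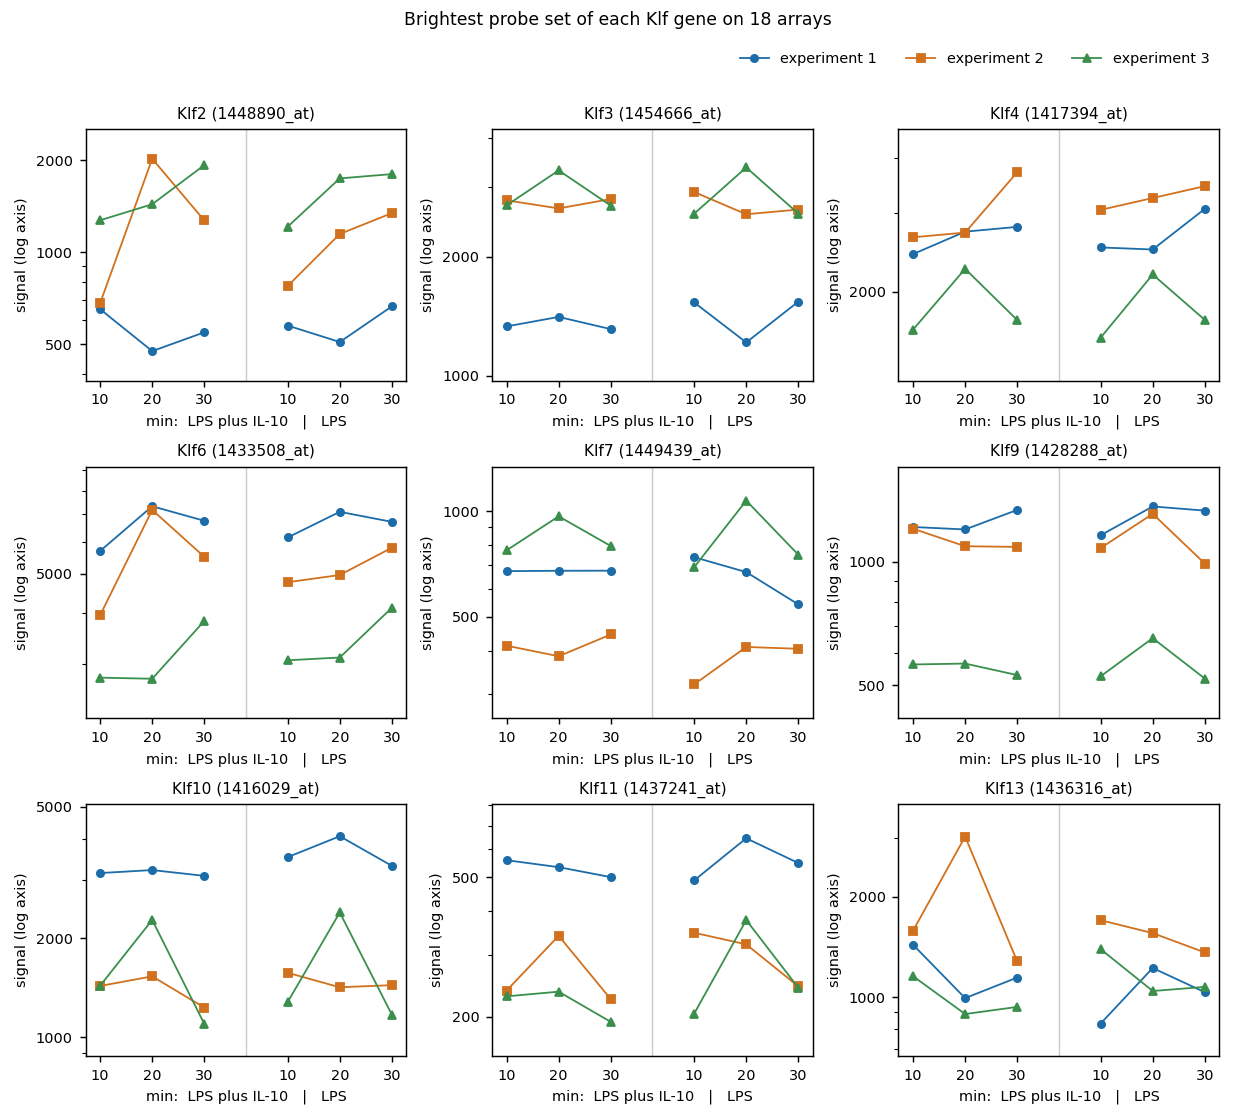
Signal (log axis) of the brightest probe set of each of the 9 genes on 18 arrays against time in min, LPS plus IL-10 on the left and LPS alone on the right of each panel. Each point is 1 array and each line 1 experiment under 1 treatment. The lines of 1 experiment lie apart from the rest in 7 of the 9 panels, and the 2 treatments overlap in every panel.

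Taken by their brightest probe sets, the 9 members at 30 against 10 min had a median difference of -0.01, with 4 of 9 above 0 and a range of -0.22 to 0.46. The median over the 12527 genes with a tested probe set was -0.03, with 41 percent above 0. At 20 against 10 min all 9 were above 0, at 0.01 to 0.36 with a median of 0.20, against a median of 0.00 and 50.1 percent above 0 over all genes. The smallest were Klf13 and Klf3, at 0.01 and 0.03, which were higher in 2 and 3 of 6 pairs. The other members were higher in 4 or 5 of 6 pairs. The LPS 20 min arrays of experiments 2 and 3, which stood apart, enter this comparison, and their part in these signs was not tested. None of the 26 probe sets was called at 20 against 10 min by limma with or without the block, where 10 and 2 had an unadjusted p under 0.05. The share called over all tested probe sets was 0.059 percent with the block and 0.0221 percent without it, and the share at an unadjusted p under 0.05 was 8.31 and 2.73 percent. Within LPS plus IL-10 the share called was 0.0332 and 0.0111 percent, and within LPS alone 0.0148 and 0 percent, again with 0 Klf probe sets called and, with the block, 5 and 4 at an unadjusted p under 0.05, against 5.44 and 9.17 percent of all tested probe sets. Of the 26 probe sets, 16 were above 0 at 20 min, so the direction of the brightest ones was not shared by all.

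IL-10 made no difference that passed a test in any member. None of the 26 probe sets was called by limma for LPS plus IL-10 against LPS at 10, 20 or 30 min, or for the change of that effect from 10 to 30 min, with or without the block. Without the block 0, 1 and 0 of the 26 had an unadjusted p under 0.05 at 10, 20 and 30 min, and with it 0, 4 and 0. Of all tested probe sets, 1.14, 3.01 and 1.16 percent did so without the block and 3.58, 7.81 and 2.81 percent with it. The share called over all tested probe sets with the block was 0 percent at 10 min, 0.0184 percent at 20 min and 0.0443 percent at 30 min, and without the block 0, 0.00738 and 0.0111 percent. For the change of the effect it was 0.0184 percent with the block and 0.00369 percent without it, and 0 Klf probe sets had an unadjusted p under 0.05, against 2.45 percent of all with the block and 0.981 percent without it. At 30 min the 9 brightest probe sets differed by -0.18 to 0.17, and their intervals with the block lay between -0.60 (the lower end for Klf2) and 0.49 (the upper end for Klf7). Differences within these intervals are not excluded with 3 arrays per group. For Klf6 on 1418280_at the difference at 30 min was 0.00, with an interval of -0.35 to 0.36, and for Klf4 -0.01, with an interval of -0.29 to 0.27.

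At 30 min with IL-10, Klf10 and Klf11 were lower in 3 of 3 experiments, with average differences of -0.14 and -0.18 on the log2 scale that were not called. Klf7 and Klf9 were higher in 3 of 3, with 0.17 and 0.06, and were not called either. For Klf9 the steps in experiments 1, 2 and 3 were 0.01, 0.13 and 0.03. The share of all tested probe sets with the same sign in 3 of 3 experiments is not given, so no shared direction is drawn from these signs. At 20 min the 4 probe sets with an unadjusted p under 0.05 were Klf3 on 1442920_at (0.92), Klf6 on 1459718_x_at (0.50) and Klf7 on 1419356_at (-0.63) and 1419355_at (-0.59). All 4 were dimmer probe sets of their gene, and their adjusted p was 0.610 to 0.634 with the block. The brightest probe sets of these genes were at 0.08, 0.13 and -0.07. The LPS plus IL-10 20 min array of experiment 2 was the highest of all on 1459718_x_at, at 534.8. It was the lowest on 1419356_at and 1419355_at, at 69.9 and 50.2. On 1442920_at the lowest was the LPS 20 min array of experiment 3, at 15.7. The experiment 2 array also held the highest signal of Klf2 (2024) and of Klf13 on 1436316_at (3029). Its part in the 20 min differences was not tested.

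**Figure D3:**
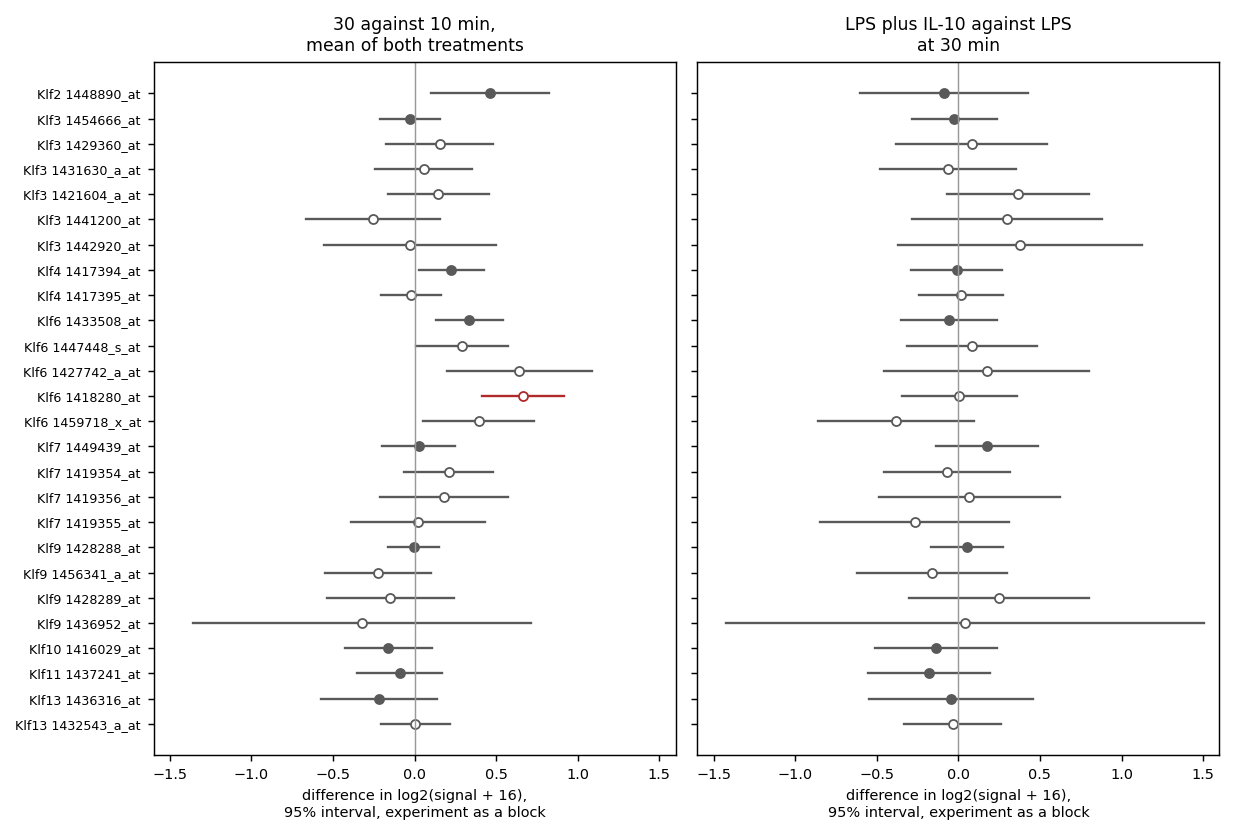
Differences in log2(signal + 16) of the 26 tested Klf probe sets, 30 against 10 min averaged over the treatments (left) and LPS plus IL-10 against LPS at 30 min (right), with 95% intervals from the fit with experiment as a block. Filled points are the brightest probe set of a gene, and red marks the single call, Klf6 on 1418280_at at 0.66. The intervals on the right all reach 0.

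The experiment was the main axis of variation of these genes. Of the sum of squares of log2 signal over the 18 arrays, a median of 79.5 percent lay between experiments for the 26 Klf probe sets, against 37.9 percent for all tested probe sets. Time took 6.43 percent, against 7.00 percent, and treatment 0.757 percent, against 1.36 percent. An F test of the experiment term in the blocked fit, added after these values had been seen, called 23 of the 26 and all 9 brightest probe sets, with Benjamini-Hochberg adjustment in limma, against 51.6 percent of all tested probe sets. The 3 that were not called were Klf3 on 1441200_at and 1442920_at and Klf9 on 1436952_at, all dim. In 16 of the 26 the 6 arrays of 1 experiment all lay above or all below the 12 others, against 20.3 percent of all tested probe sets. The Klf probe sets were not matched for brightness with the rest.

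The members did not share 1 direction across experiments. Experiment 1 was the highest for Klf10 (3088 to 4073, against 1099 to 2392 in the other experiments), Klf11 and Klf6 on 1418280_at (2427 to 3752, against 414 to 1236). The brightest Klf6 probe set, 1433508_at, overlapped, at 5688 to 7322 in experiment 1 and 3959 to 7172 in experiment 2. Of the other Klf6 probe sets, 1447448_s_at was also highest in experiment 1, while 1427742_a_at and 1459718_x_at overlapped. Experiment 1 was the lowest for Klf2 (476 to 666, against 682 to 2024) and Klf3 (1216 to 1541, against 2564 to 3366). Experiment 3 was the lowest for Klf4 and Klf9, and experiment 2 for Klf7. The summed granulocyte markers also moved with the experiment, at 1896 to 2276 in experiment 2 against 1303 to 1508 in experiment 1 and 1164 to 1580 in experiment 3, and their part in these differences was not tested. The day, the mice and the handling of an experiment cannot be told apart.

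**Figure D4:**
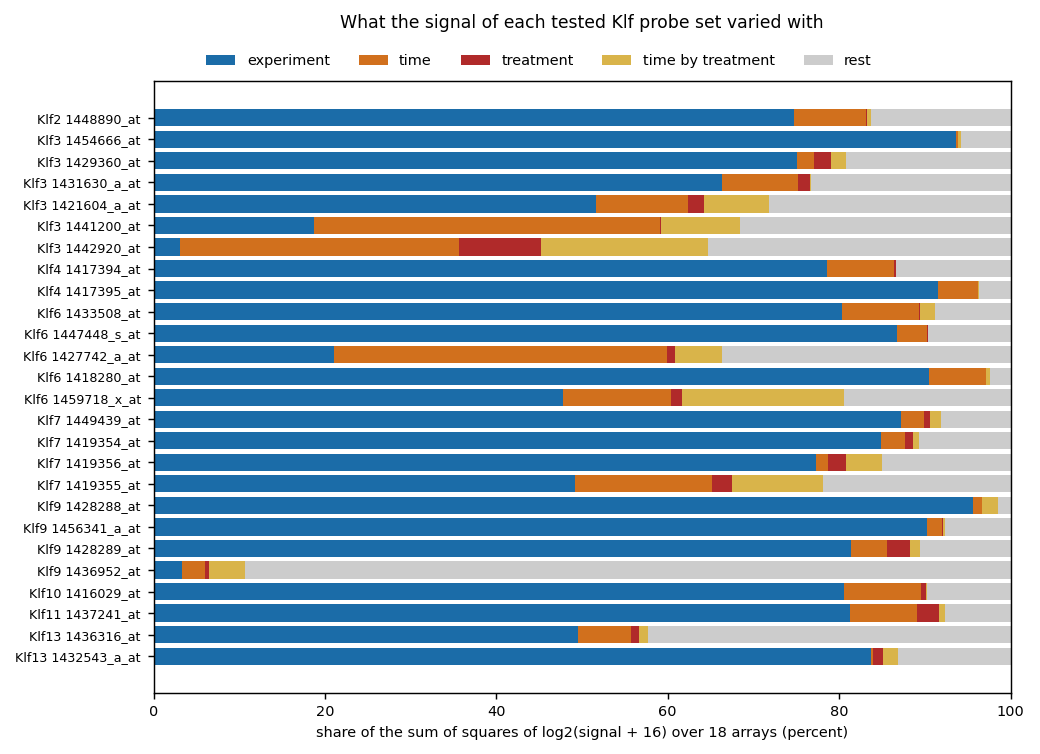
Share of the sum of squares of log2(signal + 16) over 18 arrays, in percent, that lies between experiments, times, treatments, times by treatments and the rest, for each of the 26 tested Klf probe sets. Experiment takes the largest share in most bars, a median of 79.5 percent, and treatment is a thin band with a median of 0.757 percent.

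The surrounding pathway was described from lists of related genes. Of the other Kruppel-like factors 5 were tested (of 7 on the array), with 1 above 0 at 30 against 10 min and a median of -0.09. Of the Sp factors, which share the DNA element, 5 were tested, with 3 above 0 and a median of 0.16. Co-regulators and ligases such as the CtBP and Sin3 proteins had 7 of 15 above 0 and a median of 0.00. Upstream regulators, of the ERK5 and MEF2 route to Klf2 and Klf4, the serum response and TGF-beta signalling, had 10 of 17 above 0 and a median of 0.02. Textbook target genes of the family had 5 of 14 above 0 and a median of -0.02. Over all genes 41 percent were above 0 at 30 against 10 min, with a median of -0.03. No gene of these 5 lists passed a test in any of the 10 comparisons, with or without the block. The share of all tested probe sets called in these comparisons was 0 to 0.435 percent, so a count of 0 in such short lists is near that share.

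The immediate early genes, a class induced without new protein synthesis, were taken over the same interval. At 30 against 10 min 16 of 16 were above 0, with a median of 0.70. Over all genes 41 percent were above 0, with a median of -0.03. The share of all tested probe sets called was 0.059 percent without the block and 0.435 percent with it. Of the 16 genes, 2 rose without the block and 9 with it, counting a call on any of their probe sets. The largest differences among them were those of Egr1, a zinc finger factor of the serum response (2.02, adjusted p with the block 0.00603), Ier3, an early survival gene (1.75, 6.95e-08), Dusp1, a phosphatase of MAP kinases (1.72, 1.08e-08) and Ier2 (1.404, 3.05e-05). These genes had been seen to rise in earlier results of these data and are given as a scale for the members. The 0.66 of Klf6 on 1418280_at was close to the 0.66 of Jun (adjusted p with the block 0.00277) and the 0.74 of Fos (0.00249). Jun and Fos are given by their brightest probe sets, whereas 1418280_at is the Klf6 probe set with the largest difference. The brightest Klf6 probe set, 1433508_at, was lower than both, at 0.34 (adjusted p with the block 0.285).

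After the mean of each experiment was taken off, the genes whose log2 signal followed Klf6 on 1433508_at most closely over the 18 arrays, out of 12526, were Rbpms, an RNA-binding protein (Pearson r 0.86), Gpr65, a proton-sensing receptor (0.81) and Wtap, part of the RNA methylation complex (0.79). For Klf2 they were Rhob, a small GTPase (0.82), Rnls, the enzyme renalase (0.78) and Btd, biotinidase (0.78). These are descriptions over arrays that share 6 groups and the same array scaling.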

How the data were processed

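Expression was measured on 18 Affymetrix arrays of mouse macrophages, 3 for each of 6 combinations of treatment and time. The deposited values are array intensities (signal) on a linear scale, which the authors made with GCOS 1.4, per the submitters' processing notes. Which signal algorithm was used is not stated there. The arrays arrived scaled to a common trimmed mean, so a change of total RNA per cell cannot be seen, and no detection calls were used. Gene names come from the platform's annotation and may be out of date: apart from 64 controls, which were left out, 34945 probe sets carried 1 symbol, 932 several and 9160 none.

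Signals were turned into log2(signal + 16), which understates changes of dim probe sets. A probe set was tested if it reached the array median on at least 3 arrays. limma 3.58.1 in R 4.3.3 (lmFit, eBayes with trend) was fitted to all 27110 such probe sets on the 18 arrays, with 1 coefficient per group and 12 residual degrees of freedom. Two-sided p-values were adjusted by Benjamini-Hochberg over all tested probe sets in each of 10 comparisons, with a threshold of 0.05. The fit was tested on simulated data. All 9 members are named by their brightest probe set, others where they pass a test or disagree. From each list up to 4 genes that passed are named by size, and the 3 genes most like each of 2 members. Jun and Fos were named after their values were seen. Members, lists and tests were chosen with earlier results of these data known.

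The labels make each replicate number a separate experiment. After group means were taken off, all 45 pairs of same-numbered arrays correlated at 0.20 or more (up to 0.64) and the 90 differently numbered pairs at 0.065 or less (down to -0.47), so the numbers pair the samples. The fit with the experiment as a block has 10 residual degrees of freedom. No 2 arrays shared more than 104 equal values. The number of arrays limits the precision. Other settings tried were the block, quantile normalisation, other pseudocounts and filters, only the groups compared, no trend, and leaving out each experiment or the 2 arrays that stood apart. Promoter sequences came from RefSeq.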

Additional observations from a re-analysis of the deposited data

Results flagged for a closer look

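In 2 Klf probe sets the effect of IL-10 had opposite signs at 30 and 20 min in every experiment. For Klf9 on 1428288_at, the effect at 30 min minus that at 20 min was 0.27 on the log2(signal + 16) scale: LPS plus IL-10 was above LPS in 3 of 3 experiments at 30 min (average 0.06) and below it in 3 of 3 at 20 min (average -0.21). For Klf6 on 1459718_x_at the same quantity was -0.88, with LPS plus IL-10 below LPS in 3 of 3 experiments at 30 min (average -0.38) and above it in 3 of 3 at 20 min (average 0.50). The difference between the times was not tested in either case. The share of all tested probe sets with such a pattern is not given, so the 2 are not set against the rest of the array. In experiment 1 some steps were near 0: 0.01 for Klf9 at 30 min (1339 against 1334) and 0.02 for Klf6 at 20 min (383 against 376). The LPS 20 min arrays of experiments 2 and 3, which enter both values, are the 2 whose lower quartile of signal stood apart, and their part in this was not tested. For Klf6 on 1459718_x_at the effect at 20 min was 0.02, 1.00 and 0.46 in experiments 1, 2 and 3. There the LPS plus IL-10 array of experiment 2 was the highest of all 18, at 534.8. The LPS 20 min array of experiment 3 was the lowest, at 145.7.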

How the results depend on the processing

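The count of called Klf probe sets at 30 against 10 min averaged over the treatments was 0 without the replicate block and 1 with it, Klf6 on 1418280_at. The count with the block stayed at 1 with quantile normalisation, pseudocounts of 1 and 64, no filter, a filter at the 75th percentile, and without the 2 LPS 20 min arrays that stood apart, was 3 with only the groups compared, and was 0 without an intensity trend. Leaving out 1 experiment, with or without the block, gave 0 to 1 in this comparison, at 20 against 10 min averaged, and at 30 and at 20 against 10 min under LPS plus IL-10. Under LPS plus IL-10 the block with only the groups compared gave 2 at 30 against 10 min. For the fits with only the groups compared, the share called over all tested probe sets is not given. The block changed no other call. The combinations of the block with another setting and the F test of the experiment were added after the data were seen. In the other comparisons, including all 4 that involve IL-10, the count was 0 in every setting run. Of 2300 values of single probe sets under another setting, 2174 kept direction and side of the threshold, 112 that were never called changed sign, 14 came to pass the test and 0 reversed. With 3 arrays per group, differences inside the intervals given above are not excluded, and dim probe sets cannot be told from background. The experiment cannot be separated from its day and mice.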
